A study of Mus musculus with 7 samples.

Results

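The corticotropin-releasing hormone (CRH) system comprised 4 genes, Crh, Crhbp, Crhr1 and Crhr2, picked by symbol from the 47729 genes of the count table. All 4 passed the filter on low counts, which left 19684 genes for testing. RNA was sequenced from the forebrain of mice at postnatal day 15 (P15), in 4 pools of Lhx6+/- animals (control) and 3 pools of Lhx6-/- animals (mutant), each pool holding 2 mice. Lhx6 is a transcription factor that interneurons from the medial ganglionic eminence (MGE) need in order to mature. The null allele, Lhx6tm2Vpa, is constitutive, so every cell of a mutant carries it on both copies of the gene. Controls are not wild-type, because they carry 1 copy of the same allele. The strain was F1(C57BL/6 X 129Sv), and no treatment was given. By the labels, controls were 2 pools of males and 2 of females, and mutants were 1 pool of females and 2 pools of a male and a female. Count columns are named by genotype and number only, so sex was not tied to a library here. Wherever values are listed per library, the order is 2, 3, 10 and 11 for the controls and then 5, 12 and 13 for the mutants.

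CRH is a peptide hormone best known from the hypothalamus, where it starts the stress response by driving release of ACTH from the pituitary. In cortex and hippocampus it is made locally, largely by GABAergic interneurons, many of which also contain vasoactive intestinal peptide (Vip). CRH binding protein, encoded by Crhbp, is secreted and holds CRH away from its receptors; in the cortex it is found among somatostatin (Sst) interneurons, a class that depends on Lhx6. Crhr1 and Crhr2 encode G protein-coupled receptors that raise cyclic AMP. The first binds CRH with high affinity and is common on cortical principal neurons, whereas the second prefers the urocortins and is known from the lateral septum, vessels and choroid plexus.

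The hormone is cut from the end of a precursor of 187 residues. The stretch that encodes the mature peptide is shown because it is the product that the other members bind. It spans 123 bases (41 residues, precursor positions 145 to 185) at chr3:19693922-19694044 on the minus strand of GRCm38, as found in the GENCODE M21 transcript between a pair of basic residues and the final glycine and lysine. It is given 5′ to 3′ with no letter marked.
Crh mature peptide: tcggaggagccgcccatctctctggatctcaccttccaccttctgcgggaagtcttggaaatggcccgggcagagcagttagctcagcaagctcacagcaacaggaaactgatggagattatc

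The Crhbp promoter window is shown because Crhbp was the member that changed past the threshold. RefSeq windows of 300 bases on GRCm38.p6, from 250 bases before to 50 after the annotated start, matched 3 of the 4 members (Crhbp, Crhr1 and Crhr2). Capitals mark matches to CGTCA, the half-site of the cAMP response element, and to TATAAA, the core of the TATA box. The window lies at chr13:95444782-95445081 on the minus strand.
Crhbp promoter: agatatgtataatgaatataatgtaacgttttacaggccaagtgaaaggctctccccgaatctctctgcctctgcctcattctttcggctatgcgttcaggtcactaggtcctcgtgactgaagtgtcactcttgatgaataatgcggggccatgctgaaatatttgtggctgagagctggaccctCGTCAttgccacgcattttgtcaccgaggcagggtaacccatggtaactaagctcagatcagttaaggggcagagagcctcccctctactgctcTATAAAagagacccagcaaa
The CGTCA match starts at -64 from the annotated start and the TATAAA match at 30. CGTCA on either strand was in 20.8% of 32851 such windows, and TATAAA on the sense strand in 8.32%. The palindrome TGACGTCA, a full cAMP response element that contains the half-site, was in 1.79% of windows and in none of these 3. CACGTG, an E-box, was in 7.15% and in none of the 3 either. The Crhr2 window held TATAAA at -39, and the Crhr1 window, with 75.0% G and C, held no match. Each match is a description of letters only.

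Controls summed to between 32556304 and 38069151 expected counts and mutants to between 34943398 and 37384849. The values below are normalized counts, meaning counts scaled to a common library size. The targeted gene, Lhx6, had 534 ± 58.5 normalized counts in controls (SD, n = 4) and 72.5 ± 3.55 in mutants (SD, n = 3). Every mutant lay below every control. Reads assigned to Lhx6 were thus still counted in mutants, where the paper describes the gene as absent. The source of these reads was not tested. Libraries 2, 3 and 5 stood apart from libraries 10 to 13 on the first principal component, which held 39.6% of the variance. Both runs of numbers contain both genotypes, and differences are given within each run where they matter. The runs split the pools 2 and 2 in controls and 1 and 2 in mutants, as the sex labels do. Because sex was not tied to a library, run and sex of the pools could not be told apart.

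Crhbp rose in mutants, and it was the only one of the 4 genes past the threshold in the test over all genes. Crh and Crhr2 had estimates of the same size, nearly double the control level, and missed the threshold. Crhr1 had a small negative estimate that also missed it. For each member the 3 mutant libraries lay entirely on one side of the 4 control libraries, above for Crh, Crhbp and Crhr2 and below for Crhr1. Over all tested genes, 10.7% had every mutant above every control and 9.0% had every mutant below. All 4 members had an unadjusted p of 0.05 or less in edgeR, as did 18.2% of all genes. Because whole forebrain was sequenced, a change in the number of cells that express a gene and a change in RNA per cell cannot be told apart.

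**Figure D1:**
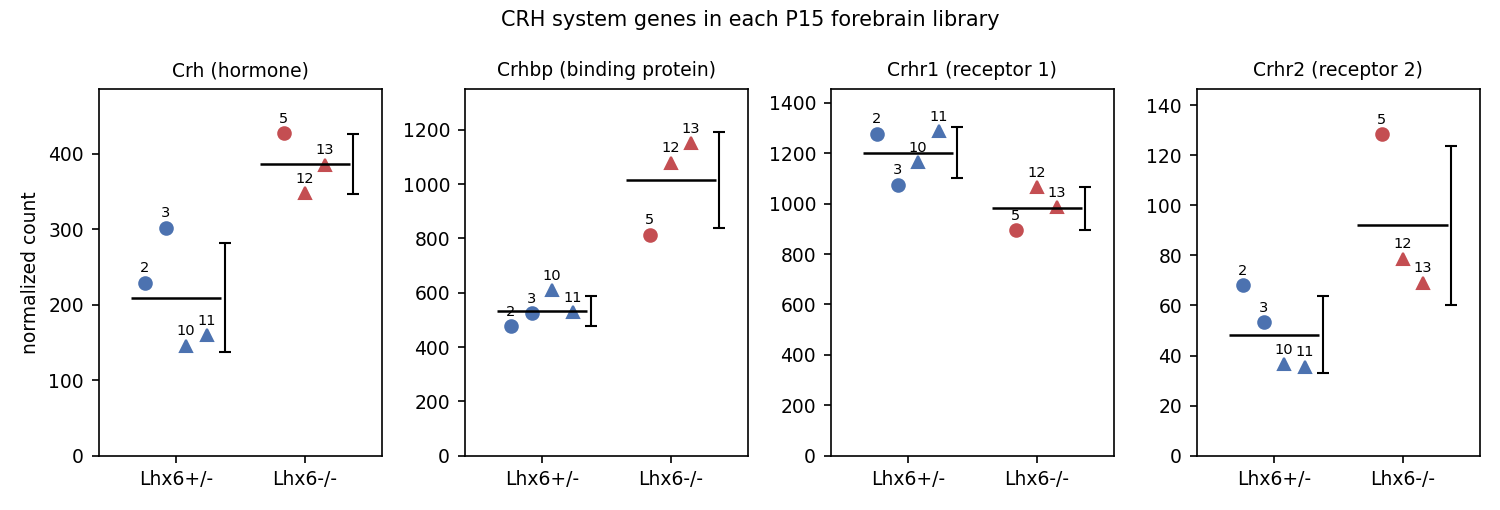
Normalized count (vertical axis, from 0) of the 4 genes in each library of Lhx6+/- (blue) and Lhx6-/- (red) forebrain, with library numbers beside the points. Circles are libraries 2, 3 and 5 and triangles libraries 10 to 13; horizontal lines are means and error bars SD (n = 4 and 3). Every mutant point lies above every control point for Crh, Crhbp and Crhr2 and below for Crhr1.

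Crh, the hormone (ENSMUSG00000049796, chromosome 3, 19693401 to 19695396, minus strand, GRCm38), had 229, 302, 146 and 159.6 normalized counts in the controls. The mutants had 427, 348 and 385. The controls split by run, with libraries 2 and 3 holding 1.74 times as much as libraries 10 and 11, while the mutants stayed within a narrower range. The mean went from 209 ± 71.97 in controls (SD, n = 4) to 387 ± 39.8 in mutants (SD, n = 3). The log2 fold change was 0.89 (SE 0.242; edgeR adjusted p = 0.0794, by the quasi-likelihood F-test with Benjamini-Hochberg adjustment over all tested genes). Its unadjusted 95% interval ran from 0.34 to 1.44. Within libraries 2, 3 and 5 the difference was 0.69 on the log2 scale, and within libraries 10 to 13 it was 1.26. With a covariate for the 2 runs of numbers, Crh passed the threshold at a log2 fold change of 1.03 (adjusted p = 0.00510 from edgeR), in a fit that called 11.2% of all genes, 6.16% higher and 5.04% lower. DESeq2, the tool the study names, also called Crh (log2 fold change 0.88, adjusted p = 0.00819 without a beta prior), where it called 8.8% of genes, 5.09% higher and 3.7% lower. With a beta prior it called 5.13% higher and 3.68% lower, Crh again included. Among fits that left out 1 library, Crh passed only without control library 3, the highest control (1.12, adjusted p = 0.0187 from edgeR).

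The other peptides of the family were hardly detected. Ucn, which encodes urocortin and acts on both receptors, had 14.3, 11.05, 9.59 and 13.2 normalized counts in the controls, against 4.79, 0 and 6.63 in the mutants. Its mutant values all lay below its control values, at a log2 fold change of -1.60 that rested on few counts (SE 0.691; edgeR adjusted p = 0.264). Ucn2 reached 7.68 normalized counts at most and Ucn3 0.959, and neither passed the filter. Where no read was counted, as many as 3 counts (0.0788 to 0.0921 CPM, counts scaled to a common library total, depending on the library) remain possible from counting error alone. Crh was thus by far the most counted member of its peptide family in both genotypes.

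Crhbp, the binding protein (ENSMUSG00000021680, chromosome 13, 95431371 to 95444831, minus strand), had 476, 524, 609 and 527 normalized counts in the controls. The mutants had 814, 1079.5 and 1150.4. The lowest mutant, library 5, stood well above the highest control, library 10. The mean rose from 534 ± 55.3 in controls (SD, n = 4) to 1015 ± 177 in mutants (SD, n = 3). The log2 fold change was 0.93 (SE 0.139; edgeR adjusted p = 0.00801). In this fit 4.85% of all genes were called, 2.97% higher and 1.87% lower. Within libraries 2, 3 and 5 the difference was 0.70 on the log2 scale, and within libraries 10 to 13 it was 0.97. The call held in all 16 alternative fits, with adjusted p from 2.03e-07 (DESeq2 with a beta prior) to 0.0490 (edgeR without mutant library 13).

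Crhbp rose in tissue in which Sst, the peptide of one of its known host cells, fell. Sst had 5356 ± 874 normalized counts in controls (SD, n = 4) and 588 ± 70.7 in mutants (SD, n = 3). The log2 ratio of Crhbp over Sst was -3.64, -3.57, -2.93 and -3.11 in the controls, against 0.28, 0.96 and 1.09 in the mutants. Sst was thus several times more counted than Crhbp in each control and less counted in each mutant. Crh was set beside Vip, a peptide it is often found with. Vip itself had 891 ± 170 and 1705 ± 247 normalized counts, and the log2 ratio of Crh over Vip averaged -2.13 ± 0.624 in controls (SD, n = 4) and -2.13 ± 0.357 in mutants (SD, n = 3). These equal means are averages over runs that differed. Libraries 2, 3 and 5 had -1.53, -1.69 and -1.73, a genotype difference of -0.12, whereas libraries 10 to 13 had -2.85, -2.44, -2.41 and -2.25, a difference of 0.31. These 2 ratios were chosen after their values were seen and were not tested.

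Crhr1, the high-affinity CRH receptor (ENSMUSG00000018634, chromosome 11, 104132855 to 104175523, plus strand), had 1278, 1075, 1165 and 1288 normalized counts in the controls. The mutants had 896, 1065 and 986. The groups did not overlap, but mutant library 12 came close to control library 3. The mean was 1201 ± 101 in controls (SD, n = 4) and 982 ± 84.7 in mutants (SD, n = 3). The log2 fold change was -0.29 (SE 0.0983; edgeR adjusted p = 0.155), with an unadjusted 95% interval from -0.51 to -0.067. No alternative called Crhr1; its adjusted p ran from 0.0533 with the run as a covariate to 0.4001 without mutant library 5.

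Crhr2, the urocortin-preferring receptor (ENSMUSG00000003476, chromosome 6, 55090049 to 55133016, minus strand), was the least counted member. The controls had 68.0, 53.2, 36.5 and 35.6 normalized counts, and the mutants had 128, 78.7 and 69.1. Mutant library 5 was much higher than the other mutants, and mutant library 13 barely exceeded control library 2. As for Crh, control libraries 2 and 3 held more than libraries 10 and 11, here 1.68 times. The mean was 48.3 ± 15.4 in controls (SD, n = 4) and 92.0 ± 31.8 in mutants (SD, n = 3), a log2 fold change of 0.93 (SE 0.307; edgeR adjusted p = 0.145). The log2 differences in the 2 runs were close, 1.08 among libraries 2, 3 and 5 and 1.04 among libraries 10 to 13. With the run as a covariate Crhr2 passed the threshold (1.05, adjusted p = 0.00622 from edgeR), and without mutant library 5 its log2 fold change was 0.63 (adjusted p = 0.387 from edgeR).

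**Figure D2:**
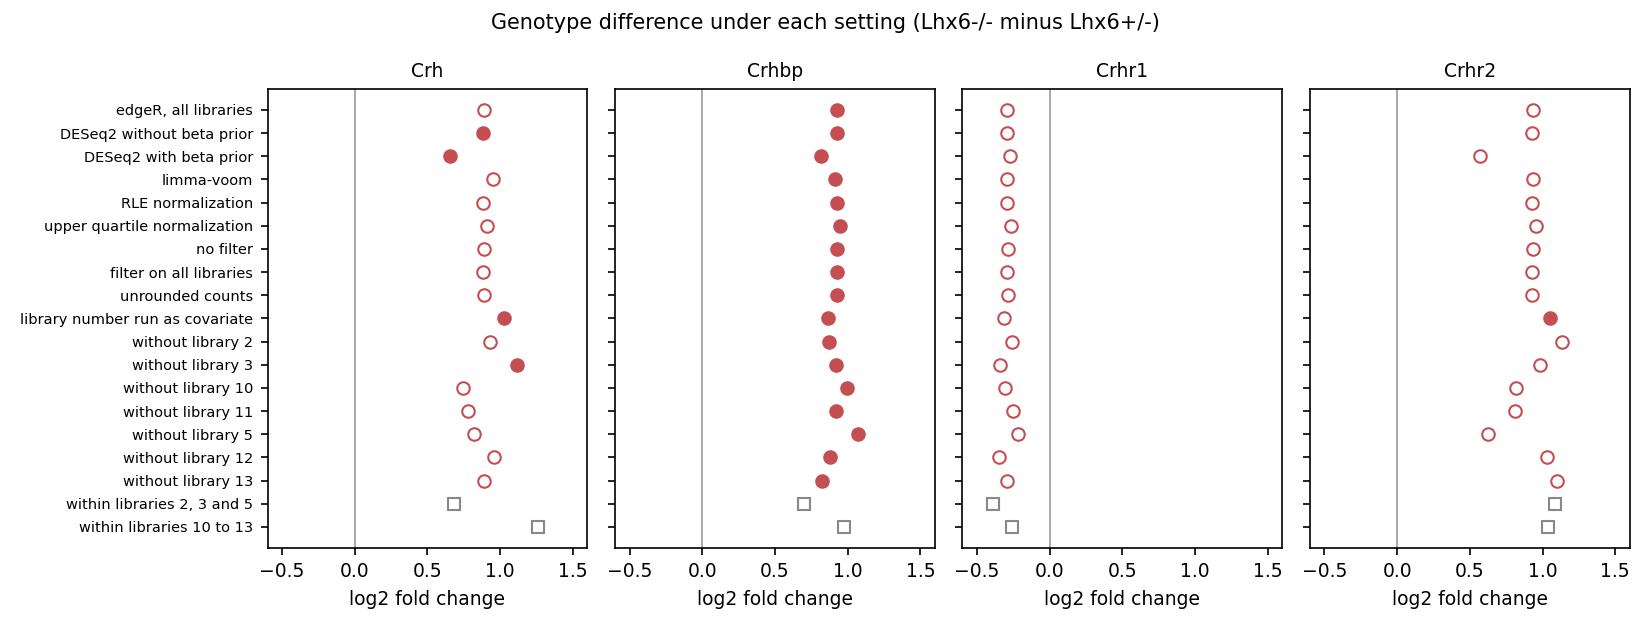
Log2 fold change of each gene, Lhx6-/- minus Lhx6+/- (horizontal axis), under each setting (vertical axis). Filled circles had an adjusted p of 0.05 or less, open circles did not, and grey squares are differences within a run of library numbers, with no test. Crhbp is filled in every fit, Crh in 4 of the 16 alternatives, Crhr2 in 1 and Crhr1 in none, and no estimate crosses 0.

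Levels of the 4 genes were compared per length, as CPM per kilobase of exon. In controls Crhr1 was highest at 13.7 ± 1.15, followed by Crhbp at 8.89 ± 0.920, Crh at 4.45 ± 1.53 and Crhr2 at 0.265 ± 0.0847 (SD, n = 4). In mutants Crhbp led at 16.9 ± 2.95, followed by Crhr1 at 11.2 ± 0.967, Crh at 8.22 ± 0.845 and Crhr2 at 0.505 ± 0.175 (SD, n = 3). Neighbours in either order did not overlap over the libraries. Per length, the binding protein stood at 0.544, 0.712, 0.763 and 0.598 times the level of Crhr1 in the controls, against at 1.33, 1.48 and 1.70 times in the mutants. The first 2 places of the order were thus exchanged between genotypes in every library, a comparison chosen after the values were seen and not tested. Exon lengths were 1320 bases for Crh, 1686 for Crhbp, 2460 for Crhr1 and 5112 for Crhr2, whose 7 annotated transcripts make its length the least certain.

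**Figure D3:**
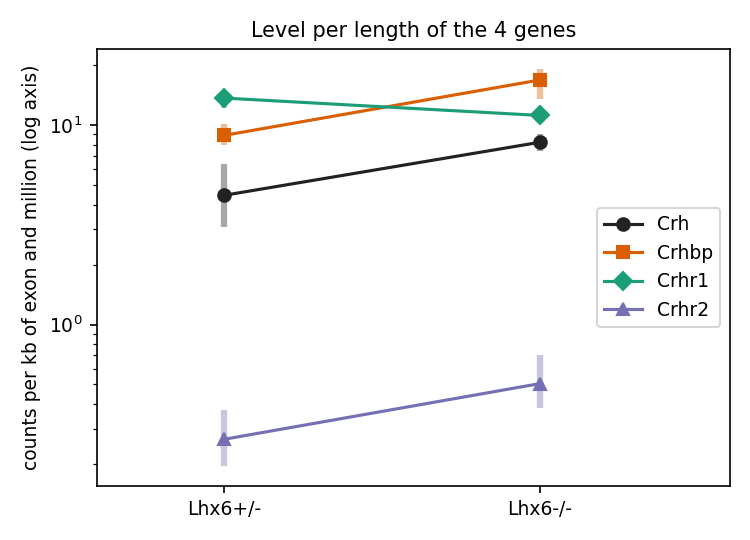
Level per length (CPM per kilobase of exon, log axis) of the 4 genes in Lhx6+/- and Lhx6-/- forebrain; points are means and shaded bars the range over 4 and 3 libraries. The lines of Crhbp and Crhr1 cross, with Crhr1 at 13.7 and Crhbp at 8.89 in controls and 11.2 and 16.9 in mutants.

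Ratios within a library do not depend on how libraries are scaled. The log2 ratio of Crh over Crhbp, hormone over its binding protein, was -1.40 ± 0.584 in controls (SD, n = 4) and -1.38 ± 0.390 in mutants (SD, n = 3). The difference of 0.026 was well within the spread between libraries (exact permutation test, two-sided, p = 0.914). The test takes no account of the runs, between which this ratio differed more. It was -1.05, -0.79 and, in the mutant, -0.93 in libraries 2, 3 and 5, a genotype difference of -0.0072. In libraries 10 to 13 it was -2.06 and -1.72 in the controls and -1.63 and -1.58 in the mutants, a difference of 0.28 with both mutants above both controls. The log2 ratio of Crhr1 over Crhr2 was 4.21, 4.31, 4.96 and 5.14 in the controls and 2.79, 3.74 and 3.81 in the mutants. All mutants lay below all controls, with a difference of -1.21 (exact permutation test, two-sided, p = 0.0571, or 0.114 after Benjamini-Hochberg adjustment over 2 ratios). By run, the difference was -1.47 (libraries 2, 3 and 5) and -1.27 (the others). With 4 against 3 libraries, 0.0571 is the smallest p this test can give. Receptor 1 remained the more counted of the receptors in every library.

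**Figure D4:**
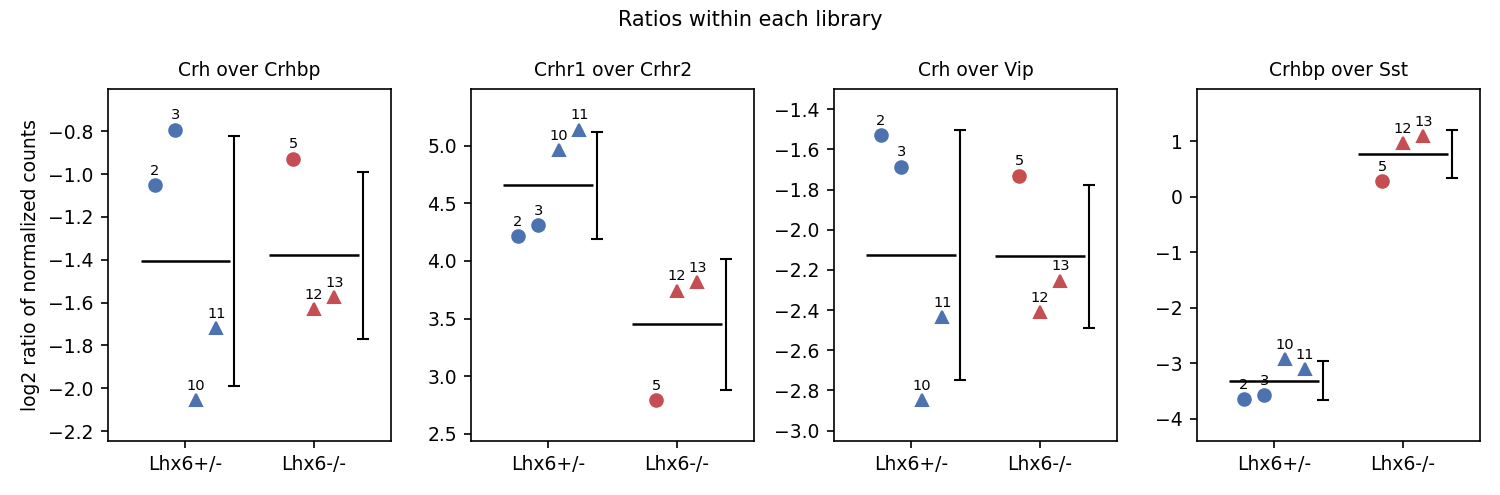
Log2 ratio of normalized counts within each library (vertical axes, each on its own scale) for Lhx6+/- (blue) and Lhx6-/- (red), with library numbers; circles are libraries 2, 3 and 5, triangles libraries 10 to 13, lines means and error bars SD (n = 4 and 3). Crh over Crhbp and Crh over Vip overlap between genotypes, whereas Crhr1 over Crhr2 and Crhbp over Sst do not.

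The genes around the system were examined as lists of 67 distinct genes, of which 59 were tested. Of these, 9 rose (15.3%) and 1 fell (1.69%), against 2.97% and 1.87% of all tested genes. The median log2 fold change was 0.068, beside -0.013 over all tested genes. These lists were chosen with earlier results of these data known.

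Enzymes and secretory proteins of peptide hormone processing held the most calls, with 4 of 9 higher and none lower and a median log2 fold change of 0.50. Pcsk1, a convertase that cuts prohormones at basic pairs such as the one before the CRH peptide, rose from 694 ± 79.0 normalized counts in controls to 1217 ± 49.2 in mutants (SD; log2 fold change 0.81, adjusted p = 0.00424 from edgeR). Pam, which amidates peptide ends including that of CRH, went up from 6394 ± 215 to 9383 ± 258 (log2 fold change 0.55, adjusted p = 0.00466 from edgeR). The granin genes Scg2 and Vgf rose by 1.76 and 1.35. Pcsk2, a further convertase, had a log2 fold change of -0.31 and did not pass (adjusted p = 0.155 from edgeR), nor did Cpe, Scg5, Chga and Chgb. The calls of Pcsk1, Pam, Scg2 and Vgf held in each of the 16 alternative fits.

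Among regulators of Crh transcription, 2 of 13 tested genes rose and none fell, with a median of 0.053. Npas4, an activity-induced transcription factor, rose by 1.94 on the log2 scale (adjusted p = 0.0130 from edgeR). Crem, a cAMP-responsive relative of Creb1 that also gives a repressor of Crh, rose from 463 ± 65.0 normalized counts to 679 ± 5.11 (SD, log2 fold change 0.55, adjusted p = 0.0389 from edgeR). The call of Crem held in only 1 of 7 fits that left out 1 library. Creb1 itself had -0.036 and the glucocorticoid receptor gene Nr3c1 -0.20, neither past the threshold. Sim1 and Otp, which specify the CRH neurons of the hypothalamus, did not pass the filter, at no more than 10.6 and 8.77 normalized counts in any library.

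In the signalling list downstream of the receptors, 1 of 27 genes rose and 1 fell, with a median of 0.015. Prkar2a, a regulatory subunit of protein kinase A, rose by 0.38 (adjusted p = 0.0332 from edgeR). Adrbk2, the gene of a kinase that desensitizes Crhr1 among other receptors, had a log2 fold change of -0.47 (adjusted p = 0.0188 from edgeR). Of 7 fits that left out 1 library, the call of Prkar2a held in 1 and that of Adrbk2 in 4. Gnas, for the stimulatory G protein subunit that both receptors use, had 0.076 (95% interval from -0.092 to 0.24, unadjusted). None of the 8 adenylyl cyclase genes passed the threshold, with log2 fold changes from -0.17 for Adcy6 to 0.43 for Adcy9.

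Of the stress axis and corticosteroid feedback genes, 2 of 11 tested rose and none fell, with a median of 0.11. Fkbp5, a glucocorticoid-induced chaperone partner, rose from 1387 ± 83.5 normalized counts to 1827 ± 50.5 (SD; 0.40, adjusted p = 0.0197 from edgeR). Hsd11b1, the enzyme that regenerates active corticosterone, rose from 671 ± 42.9 to 916 ± 20.5 (0.45, adjusted p = 0.0225 from edgeR). Other glucocorticoid-responsive genes did not pass, with Sgk1 at 0.42, Per1 at 0.068 and Tsc22d3 at -0.28. The calls of Crem and Fkbp5 were lost in 6 of 7 fits that left out 1 library, where adjusted p reached 0.147 and 0.0912. Crem and Fkbp5 kept them only without control library 3. Prkar2a also lost its call in 6 (up to 0.162, kept without control library 2), Hsd11b1 in 5 (up to 0.104, kept without control library 2 or 3), and Adrbk2 in the 3 without library 10, 12 or 13 (up to 0.111).

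**Figure D5:**
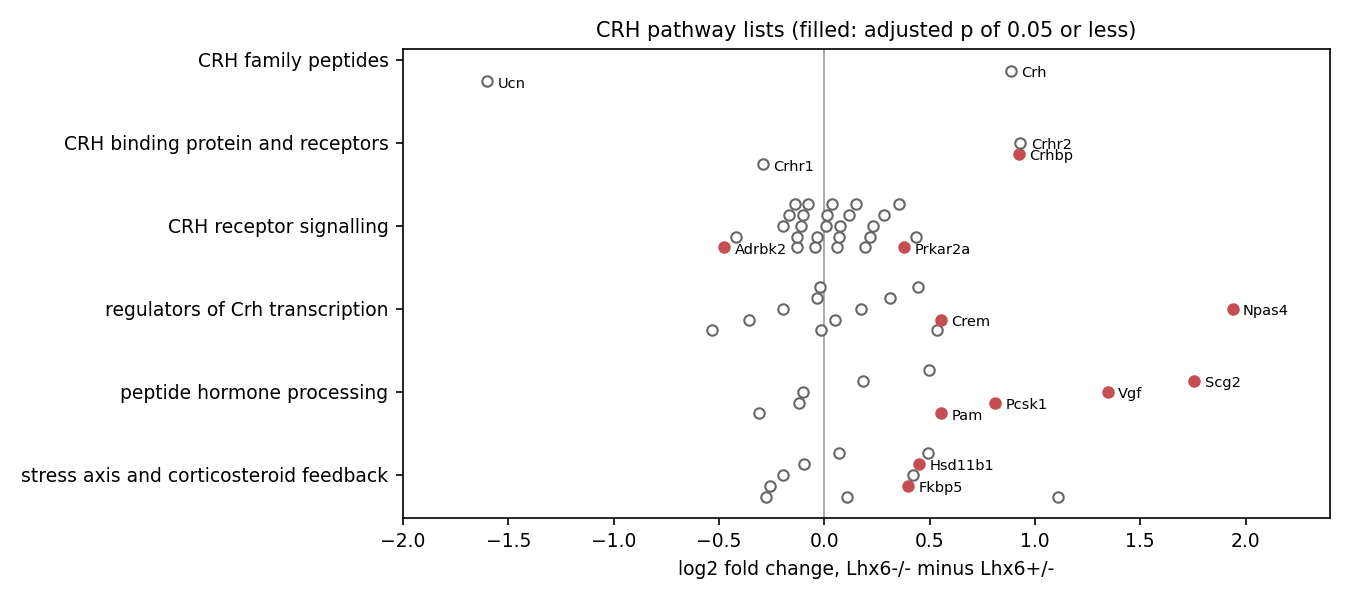
Log2 fold change, Lhx6-/- minus Lhx6+/- (horizontal axis), of the tested genes in each CRH pathway list (vertical axis, with points offset for legibility); filled points had an adjusted p of 0.05 or less in edgeR. Named filled points rise for hormone processing (Scg2, Vgf, Pcsk1 and Pam), whereas the signalling list clusters around 0.

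Markers of the cells and regions that can hold CRH system genes were read beside the members. Of 12 MGE interneuron markers, 9 fell and 1, Tac1, rose; their summed normalized counts ran from 22715 to 25117 in controls and from 12953 to 14839 in mutants. Of 14 markers of interneurons from the caudal ganglionic eminence, Vip cells included, 6 rose and none fell. Their sums ran from 26380 to 29043 in controls and from 44949 to 48821 in mutants. Most of the rise in the sum came from Npy (group means 2421 and 7818), Cck (7511 and 13686) and Cnr1 (6257 and 11398). Estimates were positive for 10 of the 14 and negative for 4, Calb2 (-0.57), Nr2f2 (-0.41), Prox1 (-0.067) and Tac2 (-0.019). Reln had 0.11, and neither it nor the negative ones passed the threshold. In the cortex, the paper reports more Reelin-positive cells of this origin and an unchanged number of VIP-positive ones. The summed counts of the first list were lower in mutants and those of the second higher. The part of either list in the Crh and Crhbp values was not tested. Hypothalamic markers were low but not all near 0. Hcrt reached 2.88 normalized counts at most, Oxt 4.14, Pmch 6.10, Otp 8.77, Sim1 10.6 and Agrp 11.5. Avp had 3.01 to 8.77 in controls and 9.47 to 10.5 in mutants, without overlap, at a log2 fold change of 1.11 that did not pass (adjusted p = 0.280 from edgeR). Trh had 25.4 to 86.6 in controls and 64.4 to 171 in mutants, which overlapped, at a log2 fold change of 0.96 (adjusted p = 0.284 from edgeR), and Pomc lay between 43.2 and 77.6 in all libraries. The sum of all 9 was 93.5 to 190 in controls and 141 to 283 in mutants, and 0 of the 4 tested passed; the part of this list in the Crh values was not tested. The pituitary markers Prl and Cga had no more than 3 counts in any library, and the list summed to 36.2 to 67.2 in controls and 72.8 to 83.3 in mutants.

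Crhr2 was read beside choroid plexus and vascular markers. The 8 choroid plexus markers summed to between 4703 and 10115 normalized counts in controls, against 2369 to 7811 in mutants. Their median log2 fold change was -0.59 and none passed the threshold. The part of this list in the Crhr2 values was not tested, and no list covered the lateral septum. The 7 markers of vascular mural cells summed to between 7145 and 8101 in controls and between 8788 and 10892 in mutants. Of these, Tagln rose by 1.104 (adjusted p = 0.0233 from edgeR) and the others did not pass; their part in the Crhr2 values was not tested. Beside Crhr1, markers of mitral and tufted cells of the olfactory bulb, which express CRH receptors, summed to 341 to 466 in controls and 221 to 301 in mutants. Cdhr1 had a log2 fold change of -0.79 (adjusted p = 0.0441 from edgeR), and Tbx21 reached 8.28 normalized counts at most. Of 10 cortical excitatory neuron markers, 1 was higher, 1 was lower and 8 did not pass the threshold. The part of these lists in the Crhr1 values was not tested.

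Finally, the genes most like each member were found by Pearson's r of log2 CPM over the 7 libraries, among 13448 or 13449 genes with a mean of at least 100 normalized counts. For Crhbp they were Eif3l (0.993), Rab27b (0.988) and Larp4b (0.987), of which Rab27b, a vesicle-traffic GTPase, was itself called higher by 0.61. For Crh they were N4bp2l1 (0.994), Dera (0.988) and A730017C20Rik (0.984), and for Crhr2 they included Akap12 (0.993) and Csrp2 (0.991). For Crhr1 they were Sstr2 (0.987), Zfr2 (0.983) and Tmem143 (0.982), the first of which encodes a somatostatin receptor. None of the genes named for Crh, Crhr1 and Crhr2 was called. The 7 points share 2 genotypes and 2 runs of libraries, and these values are descriptions. With the genotype means removed, Crh and Crhr2 still varied together (r = 0.69), and Crhbp varied against Crhr2 (r = -0.88, from 0.52 before). Crh and Crhbp, at r = 0.67 over the 7 libraries, had -0.48 with the means removed. The genes nearest to each member were then different ones, Mrpl24, Stk38 and Gm8730 for Crh, Zfp58, Ept1 and Dph6 for Crhbp, Olfm2, Slc37a2 and Pcdhga2 for Crhr1, and Ube4b, Acin1 and Zfp787 for Crhr2, each at r of at least 0.9885.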

How the data were processed

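Per the labels, libraries were made from 0.5 µg of total RNA with a TruSeq kit, whereas the study's methods state a larger amount of RNA. Those methods give single-end reads of 36 bases from an Illumina GA IIx instrument. Reads were trimmed by the authors with cutadapt 1.9.1, aligned with Bowtie2 2.2.9 to the Ensembl transcriptome of GRCm38 and deposited expected counts per gene from RSEM 1.2.31, not normalized (versions from the submitters' processing notes). A deposited table of their DESeq2 comparison holds log2 fold changes and p-values; only its gene names were used. RSEM shares reads between genes. No 36-base word of the members occurred in another gene, but shorter trimmed reads and inexact matches are not covered by this check. No annotated gene overlapped the members, so that the unstated strand setting does not bear on them.

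Expected counts were rounded. A gene was kept if 3 or more libraries had 10 or more counts, scaling was by TMM (factors 0.976 to 1.03), and genotypes were compared with edgeR 4.0.16 (quasi-likelihood F-test, no covariate, R 4.3.3), with Benjamini-Hochberg adjustment over all tested genes and a threshold of 0.05. The SE of a log2 fold change was its size divided by the root of F. Alternatives used DESeq2 1.42.0, limma 3.58.1, other scalings and filters, unrounded counts, a covariate for the run of numbers (2 to 5 or 10 to 13), and each library left out. Scripts were tested on simulated data. Ratios used a pseudocount of 1 normalized count and exact permutation tests (scipy 1.17.1). Pools of a genotype differed by more than sampling noise (chi-square per degree of freedom 9.93 to 70.4) and each counted as 1 replicate. Unused per-sample columns numbered 0. Drd1a, a striatal marker, matched no symbol; the striatal, thalamic, GABAergic and neuronal lists (0, 0, 0 and 0 genes higher, 0, 0, 1 and 0 lower) were computed and otherwise not described. Named genes were the members, list genes, Lhx6, Sst, Pvalb, Vip and Npy, and the 3 genes most correlated with each member, apart from 1 gene that is not reported here. The members and lists were chosen with earlier results of these data known.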

Additional observations from a re-analysis of the deposited data

How the results depend on the processing

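Expected counts rest on 4 and 3 pools of 2 animals each, so p-values measure the spread between pools. Sex was not a term of any fit, and whether the run covariate coincides with sex was not tested. No paired analysis was possible because the count columns carry a library number that is not the replicate number of the sample titles. Each member kept its direction in all 16 alternative fits and within both runs, Crhbp kept its call in all 16, and Crhr1 gained none. Crh gained a call with DESeq2 without and with a beta prior (log2 fold change 0.88 and 0.66), with the run as a covariate (1.03) and without control library 3; its fits without 1 library ran from 0.75 to 1.12. Crhr2 gained one with the run as a covariate (1.05). Within libraries 2, 3 and 5 the difference of Crhbp was 0.70. The number of genes higher and lower, 585 and 369, was 1002 and 729 with DESeq2 without a beta prior, 1009 and 725 with it, and 1213 and 992 with the run as a covariate; without 1 library it ran from 223 to 589 and from 79 to 382. The pathway lists' 9 higher and 1 lower became 11 higher and 3 lower with either form of DESeq2 and 13 higher and 5 lower with the run as a covariate, and without 1 library ran from 5 to 9 and from 0 to 2. With the longest transcript as length, the level of Crhr2 was 0.464 in controls and 0.883 in mutants, and the order of the 4 genes was unchanged. Without 1 library the log2 ratio difference of Crh over Crhbp ran from -0.20 to 0.23, turning negative without library 5 (-0.20), 10 (-0.19) or 11 (-0.079), and, in an alternative added after the data were seen, came to -0.0072 in the run of libraries 2, 3 and 5 and 0.28 in the other run. That of Crhr1 over Crhr2 ran from -1.39 to -0.88. The cause of these changes was not tested.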

Other observations

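The ACTH receptor gene Mc2r, which acts downstream of CRH in the adrenal gland, was counted almost only in mutants, at 5.75, 8.28 and 3.79 normalized counts in libraries 5, 12 and 13. Among controls, library 2 had 1.097 and libraries 3, 10 and 11 had 0. The gene was picked after its values were seen, and these values lie too low for the filter and were not tested. The vasopressin receptor gene Avpr1b had 8.11 ± 1.45 normalized counts in controls (SD, n = 4) and 6.23 ± 1.32 in mutants (SD, n = 3), and Pomc, which encodes the precursor of ACTH, had 54.8 ± 12.6 and 59.0 ± 17.2. The mineralocorticoid receptor gene Nr3c2 had 1648 ± 220 normalized counts in controls and 1542 ± 96.4 in mutants, and the difference did not pass the threshold (log2 fold change -0.096, adjusted p = 0.747 from edgeR). Neuropeptide Y, encoded by Npy and found in several interneuron classes, had 2421 ± 223 and 7818 ± 883 normalized counts, and parvalbumin, encoded by Pvalb, 931 ± 147 and 113 ± 31.2.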
